A study of Danio rerio with 48 samples.

Results

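The 10 genes described here belong to ionocytes, the ion-transporting cells of fish skin and gill, and to the movement of ammonia out of the body. They are rhcgb, rhcgl1, rhbg and rhag, which encode Rh glycoproteins, the ion transport genes trpv6, slc12a10.2 and ca2, and the transcription factor genes foxi3a, foxi3b and gcm2. They were chosen by name from a table of 25445 genes, and rhcgl1 was chosen by its slope with concentration at 5 days post fertilisation (dpf), so its concentration values at that age are a description with no test. All 10 were in the table and all 10 were among the 20723 genes that passed the filter on low counts. The animals were zebrafish (Danio rerio) larvae of a mixed wildtype line, exposed from 0 dpf to perfluorohexanesulfonate (PFHxS), a fluorinated surfactant of the PFAS family given as its potassium salt. At 4 dpf and at 5 dpf there was a vehicle group and a group at each of 7.87, 14 and 25.1 µM, and all 8 groups, the vehicle group included, received 0.4% DMSO. Each group held 6 libraries of polyA RNA, with 15 pooled heads per library, cut off in front of the swim bladder. Whether the pools were of separate clutches is not stated, and the p-values cover only the spread from pool to pool, part of which may be technical.

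Freshwater fish lose salt to the water, and ionocytes in the skin and, later, in the gill take it up again. In zebrafish the H+-ATPase-rich ionocyte secretes acid and takes up sodium, the Na+/K+-ATPase-rich ionocyte takes up calcium through the channel Trpv6, and another type takes up sodium and chloride through the cotransporter Slc12a10.2. Nitrogen leaves mainly as ammonia, which passes through channels of the Rh family: Rhcgb in H+-ATPase-rich ionocytes, Rhbg in skin and gill cells, and Rhag, which in vertebrates is also a protein of the red blood cell membrane. Foxi3a and Foxi3b direct epidermal precursors to the ionocyte fate, and Gcm2 acts later in the H+-ATPase-rich type and also in the pharyngeal lineage that forms the parathyroid in other vertebrates.

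The libraries held 16.6 to 39.2 M counts (1 M is 1000000), median 22.9 M. Levels are given as counts per 1000000 scaled by the trimmed mean of M values (CPM), so they compare libraries and not genes of different length. The 10 most counted genes took less than 15% of the total in 3 libraries, all of 7.87 µM: H at 4 dpf and F and I at 5 dpf. Reads could be split between related genes, and only 8.33% of the deposited counts of slc12a10.2 and 56.3% of those of ca2 were whole numbers within a tolerance of 1e-09. Both genes have near relatives, and their levels carry an uncertainty of unknown size. Even 1 split read makes a count not whole, so the share of whole counts does not measure how many reads were split. For the other 8 genes the share was 91.7% or more. A head is a mixture of tissues, and in such bulk samples fewer cells of a type and less RNA per cell cannot be told apart.

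**Figure D1:**
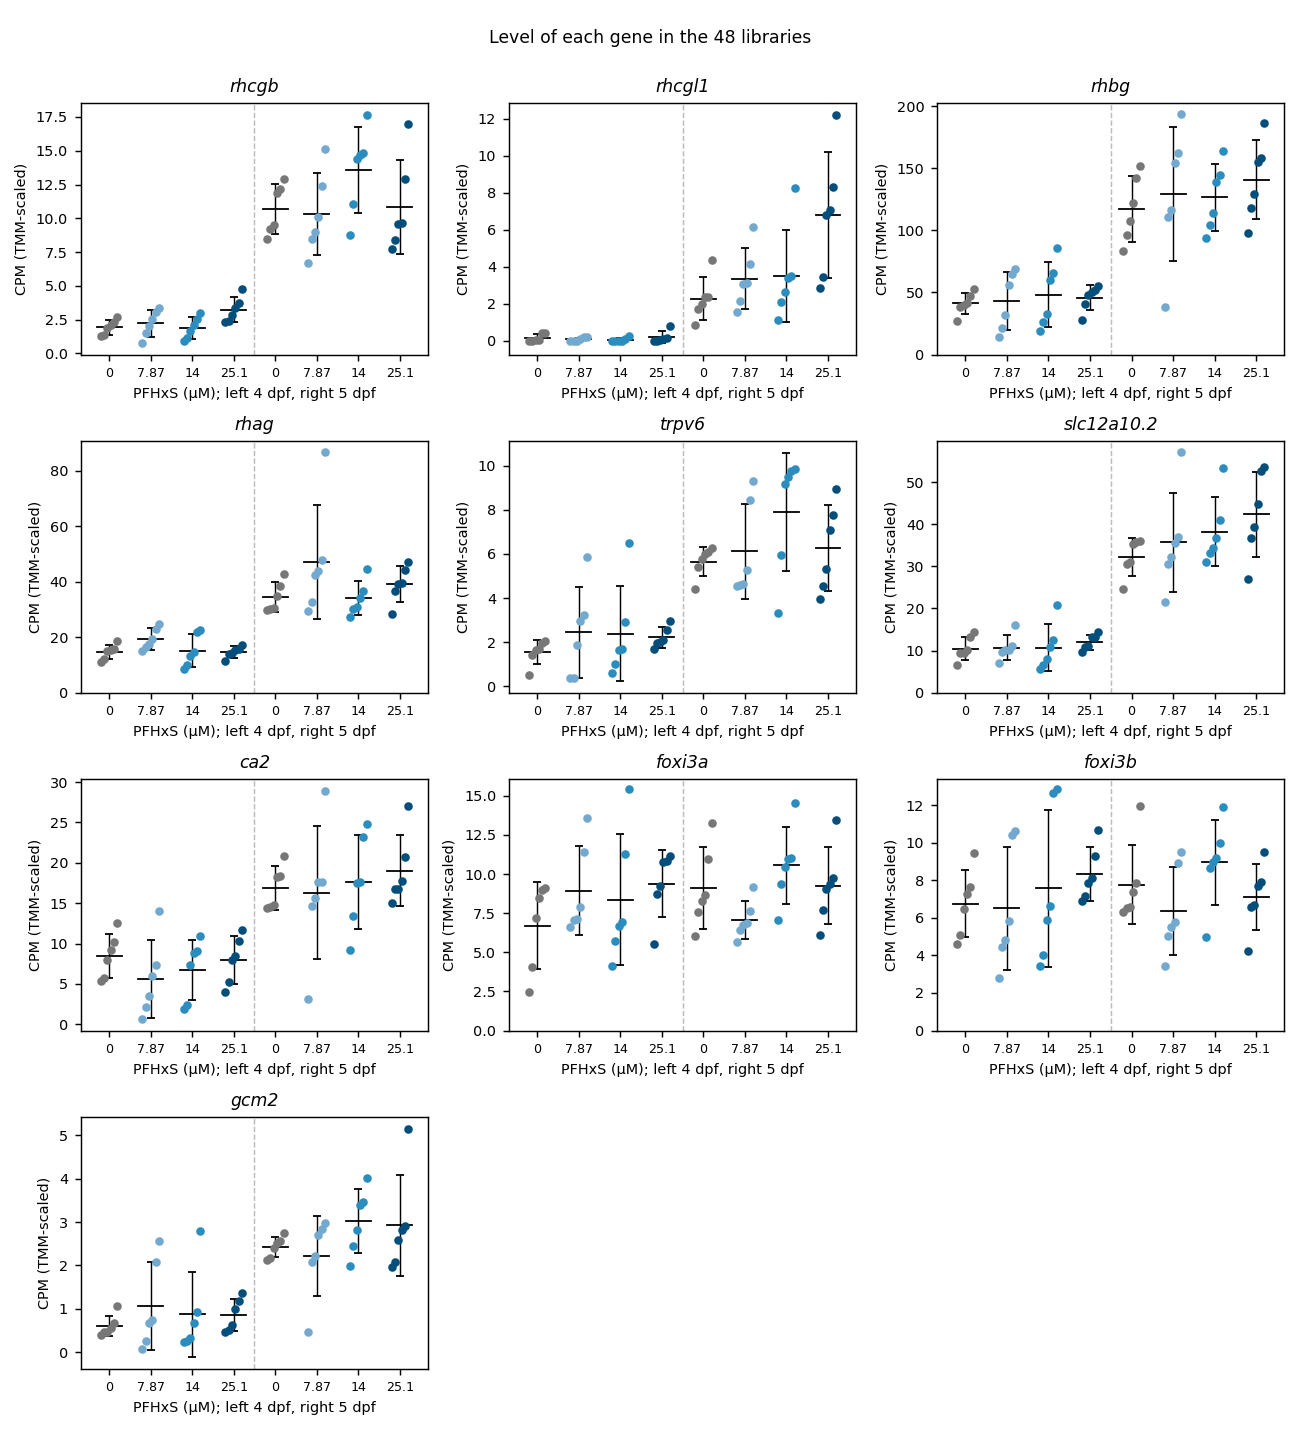
Level of each of the 10 genes in every library, as CPM on a linear axis, against PFHxS concentration in µM at 4 dpf (left of the dashed line) and 5 dpf (right); points are libraries in order of value, horizontal bars are means and whiskers are SDs (n = 6). For rhcgb, rhcgl1, rhag and slc12a10.2 all 24 points at 5 dpf lie above all 24 at 4 dpf, while foxi3a and foxi3b overlap at every concentration.

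Between 4 and 5 dpf in DMSO, 8 of the 10 genes rose and 0 fell. The genes that rose were all 4 Rh genes, the calcium channel gene trpv6, the cotransporter gene slc12a10.2, the carbonic anhydrase gene ca2 and the transcription factor gene gcm2. The threshold was an adjusted p of 0.05 in edgeR's quasi-likelihood test with Benjamini-Hochberg adjustment over 20723 genes, where 21.7% of all genes were called higher and 20.2% lower. The log2 fold changes of the genes other than rhcgl1 ran from 0.21 (foxi3b) to 2.47 (rhcgb). The median of the 10 genes, which includes rhcgl1 and is a description, was 1.57, against 0.20 over all tested genes. That background value depends on the scaling. With total counts in place of the trimmed mean, an alternative chosen after seeing the data, the median of all genes was 0.88, so changes are also given relative to it below. rhcgl1 was chosen on the 5 dpf libraries, whose DMSO group enters this comparison. It also failed the filter on the 4 dpf libraries alone, so it passed through 5 dpf. It is counted in the 8, but its rise is a description with no test.

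Among the Rh genes, rhcgb (chromosome 25, 8581541 to 8602438, minus strand, GRCz11), the ammonia channel of H+-ATPase-rich ionocytes, ran from 1.27 CPM to 2.72 with a median of 1.98 at 4 dpf in DMSO. At 5 dpf it ran from 8.43 to 12.9 with a median of 10.7, so that no libraries of the 2 ages overlapped. The log2 fold change was 2.47 ± 0.28 (SE), with an adjusted p of 1.27e-08. Its relative, rhcgl1 (chromosome 6, 36381709 to 36391688, plus strand), was almost absent at 4 dpf. In DMSO it ran from 0 to 0.427 CPM with a median of 0.0505, and over all 24 libraries at 4 dpf it had 56 reads, with 0 reads in 11 libraries. A count of 0 allows up to 3 reads, or 0.124 to 0.226 CPM in these libraries, counting error only. At 5 dpf in DMSO rhcgl1 ran from 0.853 to 4.37 CPM with a median of 2.16, above every DMSO library of 4 dpf. The log2 fold change was 3.87 ± 0.69 (SE), given with no test because values at 5 dpf chose rhcgl1. Its mean CPM was 14.7 times that of 4 dpf, or 22.8 times without library F of 4 dpf, which with library G held most of the few reads.

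The other Rh genes had smaller log2 fold changes. rhbg (chromosome 16, 29265796 to 29277165, minus strand) went from 27.3 to 52.9 CPM (median 40.4) at 4 dpf to 83.4 to 152 CPM (median 115) at 5 dpf. These DMSO groups did not overlap, and the log2 fold change was 1.51 ± 0.32 (SE; adjusted p 0.000164). rhag (chromosome 20, 14014813 to 14054084, minus strand) went from 11.1 to 18.5 CPM (median 15.2) to 29.8 to 42.9 CPM (median 32.7). It rose by 1.24 ± 0.21 on the log2 scale (SE; adjusted p 7.98e-06), again without overlap. Of 12 tested red blood cell markers, 1 was higher and 4 were lower at 5 dpf, and their summed level went from 245 to 489 CPM at 4 dpf to 139 to 229 CPM at 5 dpf in DMSO. The shares of all tested genes were 21.7% higher and 20.2% lower.

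The transport genes rose with them. trpv6 (chromosome 16, 12294284 to 12319823, minus strand) ran from 0.506 to 2.04 CPM with a median of 1.68 at 4 dpf, and from 4.42 to 6.25 with a median of 5.87 at 5 dpf. Its log2 fold change was 1.88 ± 0.43 (SE; adjusted p 0.000437). slc12a10.2 (chromosome 7, 4332430 to 4380449, plus strand) ran from 6.49 to 14.3 CPM with a median of 9.80, and then from 24.6 to 36.1 with a median of 33.1. Its log2 fold change was 1.62 ± 0.23 (SE; adjusted p 7.55e-07). In neither gene did the ages overlap in DMSO. ca2 (chromosome 24, 32650227 to 32665284, minus strand), which makes the acid that H+-ATPase-rich ionocytes secrete from carbon dioxide and water, ran from 5.36 to 12.6 CPM with a median of 8.53, and then from 14.4 to 20.9 with a median of 16.5. The groups did not overlap, and the log2 fold change of 0.99 ± 0.41 (SE) had an adjusted p of 0.0463. That call was the least firm of the 8: leaving out each of the 12 DMSO libraries in turn gave an adjusted p from 0.0341 to 0.101, and it was lost without any one of 9 of them (E, F, G and H of 4 dpf, and C, E, F, G and H of 5 dpf).

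The transcription factor genes divided. gcm2 (chromosome 24, 8827603 to 8831913, minus strand) ran from 0.408 to 1.06 CPM with a median of 0.511 at 4 dpf, and from 2.14 to 2.75 with a median of 2.47 at 5 dpf, without overlap. Its log2 fold change was 1.98 ± 0.49 (SE; adjusted p 0.00109). foxi3a (chromosome 21, 30351256 to 30352952, plus strand) ran from 2.49 to 9.11 CPM with a median of 7.82, and then from 6.02 to 13.3 with a median of 8.45. foxi3b (chromosome 14, 34514336 to 34516588, plus strand) ran from 4.60 to 9.44 CPM with a median of 6.86, and then from 6.33 to 11.9 with a median of 6.99. In both genes the ages overlapped, and neither passed the test. The log2 fold change was 0.45 for foxi3a, with a 95% interval from -0.09 to 0.99 and an adjusted p of 0.17. It was 0.21 for foxi3b, with an interval from -0.37 to 0.78 and an adjusted p of 0.58. With total counts both were called higher, by 1.18 and 0.90, and in limma on the authors' quantile-normalized values foxi3b was at -0.02. Relative to the median of all genes, foxi3a stood at 0.25 with the main scaling and 0.30 with total counts, and foxi3b at 0.01 and 0.02. Relative to the same median, the 8 genes that rose stood between 0.80 (ca2) and 3.68 (rhcgl1) with the main scaling, and between 0.78 and 3.71 with total counts.

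**Figure D2:**
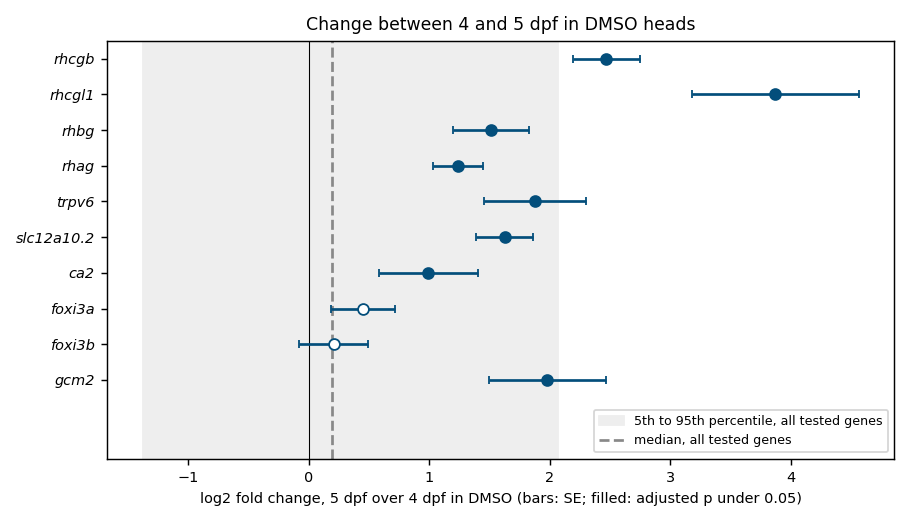
Log2 fold change between 5 and 4 dpf in DMSO for the 10 genes; points are estimates, bars are SEs, and filled points have an adjusted p under 0.05. The point of rhcgl1 is filled but is a description, since its 5 dpf values chose it. The dashed line is the median of all tested genes (0.20) and the band runs from their 5th to their 95th percentile (-1.38 to 2.07); foxi3a and foxi3b lie nearest the median.

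In DMSO, 8 of the 10 genes had all 6 libraries of 5 dpf above all 6 of 4 dpf, against 14% of tested genes. Over all concentrations together, 4 genes had all 24 libraries of 5 dpf above all 24 of 4 dpf, against 0.685% of tested genes (142). In both counts rhcgl1 is a description, since its 5 dpf values chose it. The gaps were narrow in rhcgl1, with a highest value of 0.819 CPM at 4 dpf and a lowest of 0.853 at 5 dpf, and in slc12a10.2, with 20.9 and 21.7. They were wider in rhag, with 24.8 and 27.3, and in rhcgb, with 4.77 and 6.68. On total counts the same 4 genes were separated and the background was 4.25%, and in the authors' quantile-normalized values rhcgl1 was no longer separated. The ratio of mean CPM between the ages was also computed at each concentration, without a test of the difference between concentrations. For rhcgb it was 5.52 in DMSO, 4.65 at 7.87 µM, 7.23 at 14 µM and 3.37 at 25.1 µM. For rhag it stayed between 2.26 and 2.68, and for slc12a10.2 between 3.08 and 3.58. gcm2, trpv6 and ca2 overlapped between ages at 7.87 and 14 µM but not in DMSO or at 25.1 µM, and rhbg overlapped at 7.87 µM alone. The share of all tested genes that overlapped at each exposed concentration was not computed. Whether these overlaps are particular to the members therefore cannot be said. For foxi3a the ratio was 1.36 in DMSO, 0.791 at 7.87 µM, 1.26 at 14 µM and 0.986 at 25.1 µM, and the ages overlapped at all 4.

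Other genes of ionocytes were read from lists of known markers. Of 33 tested genes of the 4 ionocyte types that were not among the 10, 16 were higher at 5 dpf in DMSO, 3 were lower and 14 did not pass, with a median log2 fold change of 0.85. On the 4 dpf libraries alone 22 of these genes passed the filter on low counts, and 18353 of the 20723 genes over all. A gene that passed only through 5 dpf could hardly be called lower, so the count of higher genes is tilted upward. Over all tested genes, 21.7% were called higher and 20.2% lower. Among the H+-ATPase-rich markers the bicarbonate exchanger gene slc4a1b rose by 2.08 ± 0.46 on the log2 scale (SE; adjusted p 0.000283) and the carbonic anhydrase gene ca15a by 1.81 ± 0.37. The proton pump subunit gene atp6v1aa, which most cells use, was lower at -0.90 ± 0.16. Of the Na+/K+-ATPase-rich markers, atp1b1b, a pump subunit, rose by 1.26 ± 0.17 and igfbp5a, a regulator of these cells' growth, by 1.72 ± 0.53, while atp1a1a.1 was lower at -0.53 ± 0.17. In the list around slc12a10.2, the pump gene atp1a1a.2 rose by 0.75 ± 0.28 and the chloride channel gene clcn2c by 0.85 ± 0.35. The chloride exchanger gene slc26a3.2 rose from 0.365 ± 0.409 CPM to 10.17 ± 3.52 (SD, n = 6), a log2 fold change of 4.88 ± 0.90 (SE).

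Within the Rh family, the 4 members included, 5 of 6 tested genes rose and 1 fell, with rhcgl1 counted as a description. rhcga rose from 4.23 ± 4.35 CPM to 68.7 ± 31.7 (SD, n = 6), by 4.02 ± 0.64 on the log2 scale (SE; adjusted p 3.55e-06). The gene that fell was rhd, named here after its value was seen, at -1.22 ± 0.39 (adjusted p 0.0115). The fate list, which holds foxi3a, foxi3b and gcm2, had 2 genes higher and 5 lower of 14. The higher ones were gcm2 and klf4, the latter named after its value was seen, and foxi1, which acts earlier in the otic and pharyngeal region, was lower at -2.004 ± 0.31 (adjusted p 2.76e-06). The epidermal factor genes tfap2a (-1.08 ± 0.20) and tfap2c (-0.77 ± 0.16) and the Notch receptor gene notch1a (-0.98 ± 0.18) were also lower. Of 15 tested genes of nitrogen excretion, 8 were higher and 3 lower: the arginase gene arg2 rose by 2.56 ± 0.24 and the glutamate dehydrogenase gene glud1b by 1.76 ± 0.30, and cps1, of the urea cycle, was at -1.95 ± 0.21. Of 16 carbonic anhydrase genes, ca2 included, 9 were higher and 1 was lower. Among the 10 tested cotransporter genes related to slc12a10.2, itself included, 2 were higher and 1 was lower. Of 8 genes of calcium hormones 5 were higher and 0 were lower, and of 13 genes of ion-balance hormones 4 were higher and 1 was lower. As a background, 21.7% of all tested genes were called higher and 20.2% lower. Counts near these shares do not set a list apart. The limit from the filter holds here too. On the 4 dpf libraries alone it kept 13 of the 15 nitrogen excretion genes and 13 of the 16 carbonic anhydrase genes. It kept 8 of the 10 cotransporter genes, 11 of the 13 ion-balance genes and all 8 calcium hormone genes.

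**Figure D3:**
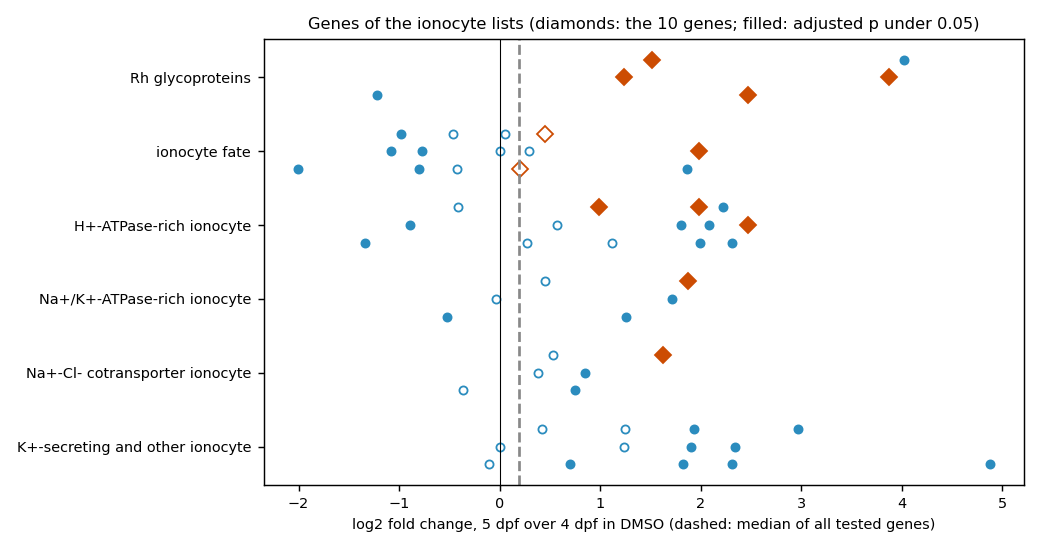
Log2 fold change between 5 and 4 dpf in DMSO for each tested gene of 6 lists, in rows; diamonds are the 10 genes described here, circles are other genes, filled symbols have an adjusted p under 0.05, and a gene can stand in more than 1 list. The dashed line marks the median of all tested genes (0.20), and the fate list holds 5 filled circles to the left of 0.

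Markers of other tissues that a head could carry also differed between the ages. Among all tested genes 21.7% were called higher and 20.2% lower at 5 dpf in DMSO. Of 14 tested kidney genes 8 were higher and 2 lower, and their summed level rose from 267 to 410 CPM in the 4 dpf DMSO libraries to 413 to 602 CPM at 5 dpf. The kidney chloride channel gene clcnk, which failed the filter on low counts, was at 0 in all 4 dpf DMSO libraries. In no other group was it at 0 in all libraries. Of 10 tested intestine genes 8 were higher and 1 lower, and the sum rose from 51.4 to 135 CPM to 328 to 512 CPM. All 13 liver genes and 11 of 12 exocrine pancreas genes were higher. Their sums went from 130 to 1157 CPM to 2018 to 3925 CPM for liver, and from 12.6 to 225 CPM to 809 to 3621 CPM for pancreas. Skin keratinocyte genes had 3 higher and 1 lower of 13, and their sum went from 11670 to 24510 CPM down to 8289 to 14870 CPM. Gill and pharynx genes, a list that includes gcm2, had 2 higher and 4 lower of 11, with a sum of 169 to 226 CPM and then 120 to 167 CPM. Neuron and glia genes had 5 higher and 2 lower of 8, while their sum went down from 3186 to 5259 CPM to 1896 to 3346 CPM. On the 4 dpf libraries alone the filter kept 11 of the 14 kidney genes and 9 of the 10 intestine genes. It kept 12 of the 13 liver genes and 10 of the 12 exocrine pancreas genes. The part of these tissues in the rise of the 8 genes was not tested.

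The next comparisons set each PFHxS concentration against DMSO of the same age. No member tested passed in any of the 6 contrasts, and 0% of all tested genes did (edgeR, adjusted p 0.05). In 57 contrasts of a member, the 3 of rhcgl1 at 5 dpf left aside, 2 had an unadjusted p under 0.05, and the smallest adjusted p was 0.431. DESeq2 also called 0 members, with 27 genes called in all at 7.87 µM and 4 dpf, 1 at 14 µM and 4 dpf, 1 at 25.1 µM and 5 dpf and 0 in the other 3 contrasts. limma on the authors' quantile-normalized values called 0 members. The 3 contrasts of an age share their DMSO libraries. None of these fits used the replicate letters in the sample titles.

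At 4 dpf the member with the smallest p was rhcgb at 25.1 µM. It ran from 2.32 to 4.77 CPM with a median of 3.08, against 1.27 to 2.72 with a median of 1.98 in DMSO. Of the 6 exposed libraries, 4 were above every DMSO library, and the lowest exposed libraries lay within the DMSO range. The means were 3.23 ± 0.933 and 1.93 ± 0.557 CPM (SD, n = 6), and the log2 fold change was 0.74 ± 0.28 (SE), with an unadjusted p of 0.0108 and an adjusted p of 1 in edgeR. The letters in the sample titles paired these groups (4 shared letters), and with the letter as a replicate block within the age the log2 fold change was 0.75 and the unadjusted p 0.0526. Of all tested genes 2.61% had an unadjusted p under 0.05 there. In the first 32 columns of the count table, where 4 exposed and 2 DMSO libraries stood, the difference of mean log2 CPM was 1.13, and in the last 16 columns, with 2 exposed and 4 DMSO libraries, it was 0.21. The last 16 columns may be a sequencing pool, which was inferred from repeated index numbers. Index numbers also repeated within the first 32 columns, so these may hold more pools than this split separates. At 7.87 and 14 µM rhcgb stood at 2.22 ± 0.991 and 1.88 ± 0.809 CPM, both overlapping DMSO. Its slope over the 24 libraries of 4 dpf was 0.03 log2 units per µM, with an unadjusted p of 0.0378 against a background of 0.926% of 18353 genes. Adjusted, it did not pass, and 0% of genes did. Markers of some other tissues also lay higher in the same contrast, fitted without the letter, although 0 of them passed. Of the liver markers 12 of 13 were positive, the median log2 fold change being 1.21, and they summed to 356 to 1531 CPM (median 1070) at 25.1 µM against 130 to 1157 (median 251) in DMSO. All 12 exocrine pancreas markers were positive, with a median of 1.39 and a sum of 37.9 to 384 CPM against 12.6 to 225. All 10 intestine markers were positive, with a median of 0.84 and a sum of 52.9 to 177 CPM against 51.4 to 135. Of the kidney markers 11 of 14 were positive, with a median of 0.51 and a sum of 301 to 480 CPM against 267 to 410. Of the red blood cell markers 11 of 12 were positive (median 0.42), and of the skin keratinocyte markers 10 of 13 (median 0.25). Of the gill and pharynx markers 7 of 11 were positive (median 0.11), and of the neuron and glia markers 4 of 8 (median 0.0025). The part of any of these tissues in the values of rhcgb, or of the other members at 25.1 µM, was not tested.

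The other members at 4 dpf overlapped DMSO at every concentration. At 25.1 µM 9 of the 10 log2 fold changes were positive, with a median of 0.38 (all tested genes -0.01), and the exception, ca2, was at -0.09. Of the medians given above, those of the liver, pancreas, intestine, kidney and red blood cell markers were higher. Those of the skin keratinocyte, gill and pharynx, and neuron and glia markers were lower, as was that of the 33 other ionocyte genes (0.23). The letters paired the 25.1 µM and DMSO groups, but these values and the intervals below are from the fit that left the letter out. With the letter as a replicate block within the age ca2 was at 0.16. foxi3a had 9.38 ± 2.13 CPM against 6.71 ± 2.80 (SD, n = 6), a log2 fold change of 0.49 with a 95% interval from -0.05 to 1.03 (unadjusted p 0.0759, adjusted p 1, edgeR). trpv6 had 2.21 ± 0.465 against 1.55 ± 0.555 CPM, and its interval ran from -0.35 to 1.39. rhag had 14.6 ± 2.01 against 14.6 ± 2.65 CPM there, with an interval from -0.41 to 0.42. At 7.87 µM rhag ran from 15.0 to 24.8 CPM with a median of 18.5, against 11.1 to 18.5 in DMSO, and 3 of 6 exposed libraries were above every DMSO library. Its log2 fold change was 0.41 with an interval from -0.01 to 0.82 (unadjusted p 0.0550, adjusted p 0.431, edgeR). All 12 tested red blood cell markers were positive in that contrast, with a median of 0.68, and 6 had an unadjusted p under 0.05. They summed to 370 to 683 CPM against 245 to 489 in DMSO. All 13 liver markers (median 0.65) and all 11 gill and pharynx markers (median 0.39) were also positive there. Of the intestine markers 6 of 10 were, and of the neuron and glia markers 5 of 8. At 25.1 µM and 4 dpf 11 of 12 red blood cell markers were positive, with a median of 0.42 and rhag at 0.0010. At 7.87 µM and 5 dpf 5 of 12 were, with a median of -0.08 and rhag at 0.45. The part of red blood cells in the rhag values was not tested. At 7.87 µM, where 12% of all genes had an unadjusted p under 0.05, and at 14 µM, where 5.05% did, 0 of the 10 members had one. With a term for the column block, 1034 of 20723 genes had one at 7.87 µM, against 2482 without that term (edgeR). ca2 had 5.60 ± 4.81 CPM at 7.87 µM and 6.74 ± 3.73 at 14 µM against 8.48 ± 2.75 in DMSO. rhcgl1 had 17, 9, 6 and 24 reads in all in DMSO and at 7.87, 14 and 25.1 µM, too few to show a difference. Of the 24 reads at 25.1 µM, 18 came from library H, and its mean relative to DMSO was 1.21 with that library and 0.386 without it. Without library F of DMSO it was 1.86.

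At 5 dpf the unadjusted p was under 0.05 for rhag at 7.87 µM. In those libraries rhag ran from 29.5 to 86.7 CPM with a median of 43.0, against 29.8 to 42.9 with a median of 32.7 in DMSO, and 3 of 6 exposed libraries were above every DMSO library. The log2 fold change was 0.45 ± 0.20 (SE), with an unadjusted p of 0.0310 and an adjusted p of 0.986 in edgeR. Of all tested genes 4.69% had an unadjusted p under 0.05. The letters were not taken to pair these groups. With the letter as a replicate block within the age, the log2 fold change of rhag was 0.44 and the unadjusted p 0.0504 (edgeR). In the fit without the letter, library I, at 86.7 CPM, set much of the difference. Without that library the log2 fold change was 0.19, and without the 3 libraries of low top-10 share it was 0.10. In the same library rhbg (38.0 CPM), gcm2 (0.463) and ca2 (3.17) were the lowest of all 24 libraries at 5 dpf. Red blood cell markers summed to 192 CPM in library I, within the 144 to 226 CPM of its group.

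At 14 and 25.1 µM no member tested at 5 dpf had an unadjusted p under 0.05, against 0.729% and 0.671% of all genes. The cotransporter gene slc12a10.2 stood at 32.2 ± 4.46 CPM in DMSO, 35.8 ± 11.8 at 7.87 µM, 38.3 ± 8.19 at 14 µM and 42.4 ± 10.11 at 25.1 µM (SD, n = 6). At 25.1 µM it ran from 27.1 to 53.6 CPM, and 5 of 6 libraries were above every DMSO library, of which the highest had 36.1. Its slope was 0.02 log2 units per µM, with an unadjusted p of 0.0365 against 2.06% of 20406 genes, and an adjusted p of 1 in edgeR. trpv6 at 14 µM ran from 3.33 to 9.84 CPM with a median of 9.32, against 4.42 to 6.25 in DMSO. There, 4 libraries were above and library G was below every DMSO library, and the log2 fold change was 0.48 with a 95% interval from -0.31 to 1.28. The foxi3 genes were lowest at 7.87 µM, with 7.08 ± 1.21 CPM for foxi3a and 6.37 ± 2.36 for foxi3b, against 9.12 ± 2.60 and 7.77 ± 2.12 in DMSO. For foxi3b 4 of the 6 libraries were below every DMSO library, and the interval of its log2 fold change ran from -0.86 to 0.29. The rhcgb level at 25.1 µM was 10.9 ± 3.48 CPM against 10.7 ± 1.85 in DMSO. The 25.1 µM effect on rhcgb differed between 5 and 4 dpf by -0.71 ± 0.38 (SE), with an unadjusted p of 0.0644 and an adjusted p of 1, where 1.84% of genes had an unadjusted p under 0.05 and 0% passed. In edgeR's estimates rhbg, trpv6 and slc12a10.2 were positive in all 6 contrasts, of which the 3 of an age share their DMSO libraries. As differences of mean log2 CPM, rhbg at 7.87 µM (-0.13) and slc12a10.2 at 14 µM (-0.07) were negative at 4 dpf. The 95% intervals reached as far as 0.89 for rhbg, 1.56 for trpv6 and 0.85 for slc12a10.2, so changes of that size were not excluded at this spread.

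**Figure D4:**
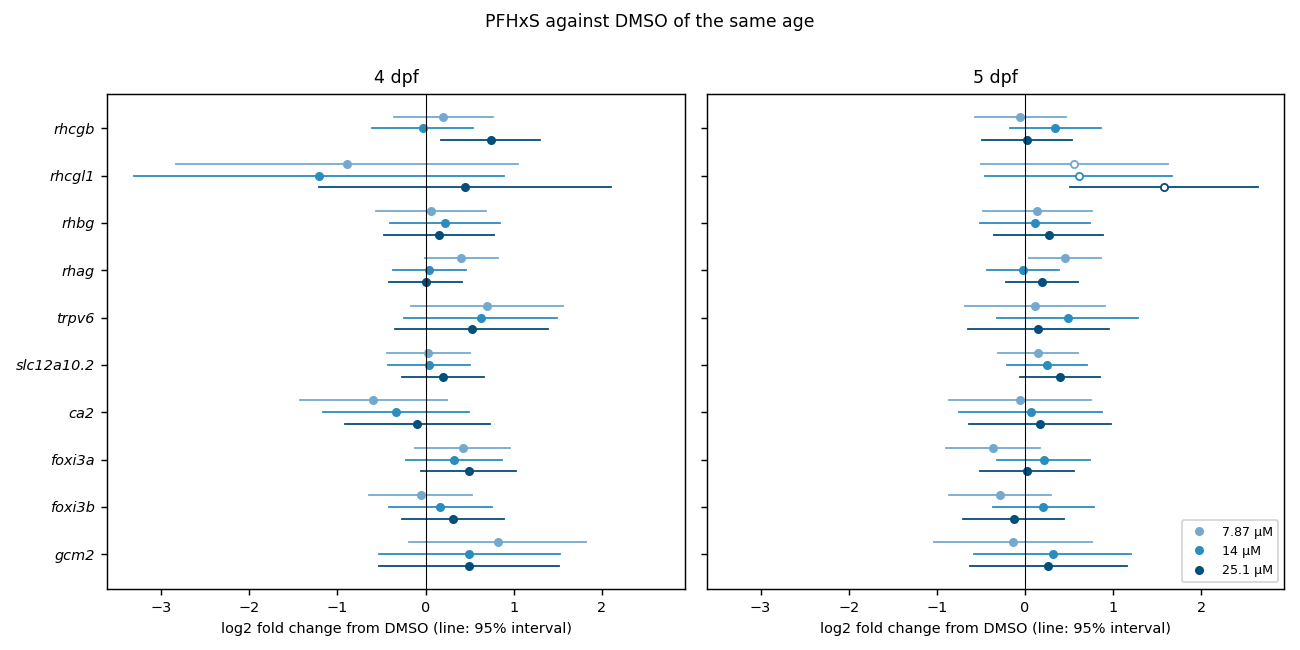
Log2 fold change of each gene at 7.87, 14 and 25.1 µM PFHxS from DMSO of the same age, at 4 dpf (left) and 5 dpf (right); points are estimates from 6 against 6 libraries, lines are 95% intervals, and open points mark rhcgl1 at 5 dpf, which was chosen by its slope there. The lines of rhcgl1 at 4 dpf are the longest (down to -3.31 at 14 µM), and among the filled points those of rhcgb at 25.1 µM and 4 dpf and of rhag at 7.87 µM and 5 dpf have lines that stay above 0. All are from the fit without the letter as a replicate block. With that block within the age, rhcgb at 25.1 µM and 4 dpf had an unadjusted p of 0.0526 in edgeR. For rhag at 7.87 µM and 5 dpf it was 0.0504.

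For rhcgl1 at 5 dpf the values are those that chose it. It ran from 0.853 to 4.37 CPM with a median of 2.16 in DMSO, from 1.53 to 6.16 with a median of 3.095 at 7.87 µM, from 1.098 to 8.23 with a median of 2.98 at 14 µM, and from 2.86 to 12.2 with a median of 6.93 at 25.1 µM. At 25.1 µM 4 of 6 libraries were above every DMSO library, and at 7.87 and 14 µM 1 of 6 was. The means, in CPM with SD, were 2.28 ± 1.17, 3.36 ± 1.64, 3.48 ± 2.49 and 6.79 ± 3.42 (n = 6). Neighbouring concentrations overlapped, and 7.87 and 14 µM differed by far less than their SDs. The log2 fold changes from DMSO were 0.56, 0.61 and 1.57, and the slope was 0.06 log2 units per µM. In the first 32 columns the 25.1 µM difference of mean log2 CPM was 1.79, with 4 against 5 libraries, and in the last 16 columns it was 0.87, with 2 against 1. Of 20406 genes 1 passed (0.0049%) for the 5 dpf slope, si:dkey-61n16.5, and it is not a member.

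For 9 of the 10 genes the group with the highest coefficient of variation was 7.87 or 14 µM at 4 dpf; for rhag it was 7.87 µM at 5 dpf (43.8%). The share of all tested genes with their highest value in these groups was not computed. Whether this spread is particular to the members therefore cannot be said. At 7.87 µM and 4 dpf foxi3a (31.8%) and rhcgl1 (125%) nonetheless varied less than in DMSO of that age (41.7% and 131%). The coefficient of variation of gcm2 was 95.4% at 7.87 µM and 113% at 14 µM, against 39.9% in DMSO, and that of trpv6 was 84.2% and 90.3% against 35.9%. The library B of each of these groups was the highest for both genes: trpv6 was at 5.86 and 6.48 CPM and gcm2 at 2.56 and 2.81 CPM. Without library B the ratio of mean CPM at 14 µM to DMSO went from 1.54 to 1.01 for trpv6 and from 1.44 to 0.804 for gcm2. rhbg in the same libraries B was 68.7 and 85.6 CPM, the highest of each group. rhag varied least at 4 dpf, with a coefficient of variation between 13.7% and 39.2%.

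After the group means were taken away, the members varied together across libraries at 4 dpf. Over the 24 libraries, all 36 pairs of the 9 genes other than rhcgl1 correlated positively, with Pearson's r from 0.02 to 0.83 and a median of 0.57. The median r of each of these genes with all other tested genes lay between 0.01 and 0.05, and 5% of all genes had an r over 0.50 to 0.77, depending on the member. In a permutation test of libraries within groups, 20 of the 36 pairs had a Benjamini-Hochberg adjusted p under 0.05 for both r and Spearman's rho, over 81 pairs at the 2 ages. All genes of a library share its RNA, depth and scaling. The permutations treat the libraries of a group as exchangeable, whereas libraries with the same letter in different groups of an age often deviated together. With the letter removed as well, an alternative chosen after seeing the data that leaves 12 residual degrees of freedom, 33 of the 36 pairs were positive, with a median r of 0.49. rhbg went with ca2 (r = 0.83, rho = 0.81, adjusted permutation p 0.00162 and 0.00231) and with gcm2 (r = 0.72, rho = 0.70, adjusted permutation p 0.0186 and 0.0205). Of all genes 5% had an r over 0.77 with rhbg, which is above its r with gcm2. rhcgb went with slc12a10.2 (r = 0.78, rho = 0.81, adjusted permutation p 0.00101 and 0.00122). The foxi3 genes went with each other (r = 0.77, rho = 0.79, adjusted permutation p 0.00101 and 0.00211). Leaving out the 2 farthest libraries, r was 0.73 for rhbg with ca2, 0.71 for rhbg with gcm2, 0.73 for rhcgb with slc12a10.2 and 0.76 for the foxi3 pair. With the letter removed these were 0.74, 0.69, 0.74 and 0.57. Within the first 32 columns (16 libraries of 4 dpf) and the last 16 (8 libraries) these r values were 0.85 and 0.78, 0.83 and 0.23, 0.70 and 0.88, and 0.84 and 0.75.

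At 5 dpf 32 of 45 pairs were positive, with r from -0.52 to 0.85 and a median of 0.32, and 7 pairs passed for both measures. The median r of each member with all other tested genes lay between -0.0023 and 0.068. Of all genes 5% had an r over 0.54 to 0.70, depending on the member. The foxi3 pair again correlated (r = 0.85, rho = 0.85, adjusted permutation p 0.00081 for both, from an unadjusted 1e-05, the smallest that the permutations can give; 0.81 without the 2 farthest libraries; 0.88 within each block of columns). rhcgb went with foxi3b (r = 0.81, rho = 0.78, adjusted permutation p 0.00081 and 0.00162; 0.78 without the 2 farthest; 0.67 and 0.99 within blocks) and with foxi3a (r = 0.73, rho = 0.73, adjusted permutation p 0.00113 and 0.00263). The link of rhbg with gcm2 was r = 0.80 and rho = 0.57 (adjusted permutation p 0.0160 and 0.0303), but r was 0.53 without the 2 farthest libraries. rhcgl1 went with rhag (r = 0.58, rho = 0.73) and rhbg (r = 0.49, rho = 0.73). Both pairs are in the count of 7 but are given with no test, since values at 5 dpf chose rhcgl1. For comparison, 5% of all genes had an r over 0.55 with rhcgl1, 0.59 with rhag and 0.70 with rhbg. With the letter removed, r was 0.91 for the foxi3 pair, 0.82 and 0.78 for rhcgb with foxi3b and foxi3a, 0.83 for rhbg with gcm2, and 0.60 and 0.46 for rhcgl1 with rhag and rhbg. The lowest r, -0.52 for rhag with ca2, had a rho of -0.18 and rested on the 2 farthest libraries, since r was 0.02 without them.

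**Figure D5:**
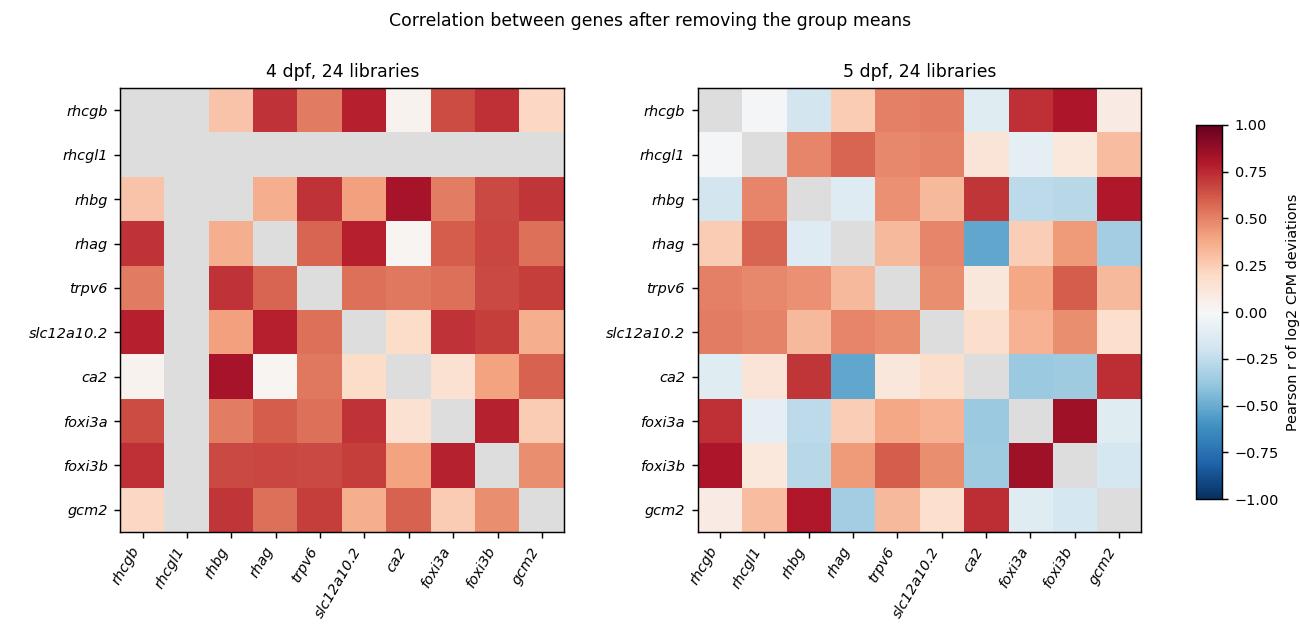
Pearson's r between the genes' log2 CPM deviations from their group means over 24 libraries at 4 dpf (left) and 24 at 5 dpf (right); red is positive, blue negative, and grey is the diagonal and, at 4 dpf, rhcgl1. All 36 pairs are red at 4 dpf, and at 5 dpf ca2, gcm2 and rhbg are blue against foxi3a and foxi3b.

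The genes most like 3 of the members were read off among 12443 genes that have a descriptive symbol and reach a mean log2 CPM of 1, by Pearson's r of deviations from the 8 group means over 48 libraries. For rhcgl1 they were scel (0.64), which encodes sciellin of the keratinocyte envelope, lgals3b (0.57), a galectin gene, and fstl1a (0.56). For rhcgb they were fah (0.78), of tyrosine breakdown, the sodium pump gene atp1a1a.2 (0.77), which marks ionocytes with slc12a10.2, and foxi3b (0.76). For trpv6 they were cpvl (0.83), a carboxypeptidase gene, the apolipoprotein gene apoeb (0.82) and slc10a7 (0.81). These r values are the highest of many and are given with no test. The 24 libraries of 4 dpf, 11 of them with 0 reads of rhcgl1, enter its ranking and carry little information on it; over the 24 libraries of 5 dpf alone, r with rhcgl1 was 0.83 for scel, 0.56 for lgals3b and 0.65 for fstl1a. For atp1a1a.2 with rhcgb r was 0.81 at 4 dpf and 0.74 at 5 dpf.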

How the data were processed

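PolyA RNA of pooled heads was sequenced in 48 libraries, grouped by the treatment, concentration and age labels; the letter in the titles was taken as the replicate name. The authors deposited a table of expected counts per gene, not normalized, for 25445 genes, and a second deposited table of log2 values after quantile normalization, for 19844 genes. The build was GRCz11 and the tools were Partek 8.0.19.0428 and STAR 2.5.3a, per the submitters' processing notes; how reads shared between genes or strands were counted is not given in the sources used here. Gene coordinates are those of the deposited table, and members and list genes were matched by exact symbol.

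Expected counts were rounded, genes kept with filterByExpr (20723), and the 8 group means fitted over all 48 libraries in edgeR 4.0.16 (R 4.3.3; trimmed mean of M values, glmQLFit and glmQLFTest), with p-values adjusted by Benjamini and Hochberg over all tested genes. Each slope used the 24 libraries of its age (18353 genes at 4 dpf, where rhcgl1 was filtered out, and 20406 at 5 dpf). Scaling factors were 0.566 to 1.098 (4 dpf) and 1.1 to 1.925 (5 dpf), and the biological coefficient of variation was 0.361. SEs are the log2 fold change over the square root of F, and 95% intervals use the t quantile at the test's degrees of freedom. Log2 CPM for correlations had a prior count of 2, and permutations (100000) moved libraries within groups. No 2 of the 1128 pairs of libraries agreed within sampling noise (smallest chi-square per gene 13.2). Libraries with the same letter were checked for shared deviations from their group means (Pearson's r across genes). At 4 dpf 19 of 23 same-letter pairs had an r over 0.1 (median 0.32), at 5 dpf 17 of 28 (median 0.12), and between ages 15 of 62 (median -0.12). Of the comparisons with DMSO, all pairs were over 0.1 for 25.1 µM at 4 dpf (4 pairs, 0.20 to 0.41), so the letters were taken to pair those samples; for the others they were not. What the letter stands for is not stated. The scripts were tested on simulated data.

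The members, the 19 marker lists and the tests were chosen with earlier results of these data known. All 10 members are described, and of each list at most the 4 genes with the smallest p that passed, unless stated. Alternatives were DESeq2 1.42.0, limma 3.58.1 on the quantile-normalized values with a pseudocount of 1, no filter or a minimum of 1 CPM in 6 libraries, fits on 24 libraries, relative log expression in place of the trimmed mean, the letter as a replicate block, a term for the column block, concentration in steps, the 3 libraries of low top-10 share left out, each library left out in turn and, chosen after seeing the data, total counts, the replicate block fitted within an age, and correlations with the letter removed.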

Additional observations from a re-analysis of the deposited data

Results flagged for a closer look

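Dixon's 95% critical value is passed by chance in about 1 in 20 sets of independent, normally distributed values. Low counts on a linear CPM scale are not normally distributed, and genes share their libraries, so the count below cannot be set against that rate. In 8 of 80 combinations of a gene and a group, 1 library lay far from the other 5 of its group (gap to the nearest, over the range, above that value). Of these, 3 were in rhcgl1: library D of 14 µM at 4 dpf had 0.266 CPM against 0 to 0.0854, library H of 25.1 µM at 4 dpf 0.819 against 0 to 0.155, and library H of 14 µM at 5 dpf 8.23 against 1.098 to 3.499. Another 3 were in gcm2: library B of 14 µM at 4 dpf had 2.81 CPM against 0.226 to 0.930, library F of 25.1 µM at 5 dpf 5.16 against 1.96 to 2.90, and library I of 7.87 µM at 5 dpf 0.463 against 2.08 to 2.99. The same library I had 86.7 CPM of rhag against 29.5 to 47.9 in the others. Library I of DMSO at 5 dpf had 11.9 CPM of foxi3b against 6.33 to 7.83.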

How the results depend on the processing

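The count of members called at an adjusted p under 0.05 was 0 for each concentration, slope and age difference under every alternative run. For 5 against 4 dpf it was 8, 7 in limma and 10 on total counts, and 7 to 8 with each DMSO library left out. In the main fit 21.7% of all genes were called higher and 20.2% lower. On total counts the median of all genes was 0.88, and foxi3a and foxi3b stood at 0.30 and 0.02 relative to it. The 10 calls came with that shift of all genes. These counts include rhcgl1 as a description. With the letter as a replicate block the count stayed at 8, where 9662 of 20723 genes were called in all. There ca2 had a log2 fold change of 1.27 between ages and rhcgb 0.77 at 25.1 µM and 4 dpf. With that block 0 members were called for exposure, also with the block fitted within an age. The call for ca2 between ages was also lost in limma (0.96, adjusted p 0.0691). Small differences that were not called changed sign. ca2 at 25.1 µM and 4 dpf (-0.09) was 0.00086 with the replicate block, 0.16 with it fitted within the age, 0.010 with the column block term, and -0.23 to 0.051 with each library left out. rhag at 14 µM and 5 dpf (-0.02) was 0.021 with the replicate block within the age, 0.015 with the column block term and -0.11 to 0.052 with libraries left out. foxi3b at 25.1 µM and 5 dpf (-0.13) was -0.23 to 0.032 with libraries left out. Its 5 dpf slope (-0.0010 per µM) was 0.00077 with the column block term, 0.0076 per step of concentration, and -0.0038 to 0.0046 with libraries left out. foxi3b between ages was -0.017 in limma, and the difference of its DMSO level in the quantile-normalized values was also -0.017; in those values rhbg stood at 1.87 and gcm2 at 1.47, against 1.51 and 1.92 in log2 CPM. The cause of these shifts was not tested. With few reads, rhcgl1 at 4 dpf and gcm2 are limited by depth.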
